A study of Homo sapiens with 9 samples.

Results

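Genes that the ERK pathway switches on were followed in 3 mammary epithelial cell lines: the dual-specificity phosphatases DUSP1, DUSP4, DUSP5, DUSP6 and DUSP10, the Sprouty genes SPRY1, SPRY2 and SPRY4, the Sprouty-related gene SPRED1, and ETV5. They were taken by symbol from a table of RNA counts with 60199 gene symbols. All 10 were present, and all were among the 15717 genes with enough counts to be tested. All but ETV5 encode inhibitors of MAP kinase signalling, and of these the DUSP10 protein prefers the MAP kinases p38 and JNK to ERK. ETV5 encodes a transcription factor of the ETS family that is a target of ERK and not itself an inhibitor.

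The lines all descended from MCF10A, an immortalised and non-transformed human mammary epithelial cell line. CT was parental MCF10A, labelled as not transformed and grown with no added cytokine. MC26 was made from unsorted MCF10A by long exposure to bone morphogenetic protein 2 (BMP2) and interleukin 6 (IL6). M1B26 was made in the same way from cells sorted for the BMP receptor BMPR1B, and goes back to 3 colonies picked from soft agar. BMP2 and IL6 were also in the medium in which MC26 and M1B26 were grown, so the history of a line and the presence of the factors cannot be told apart. The base medium of the 3 lines held horse serum, insulin, hydrocortisone, cholera toxin and epidermal growth factor (EGF), itself an activator of ERK. Each line was represented by 3 independent cultures, so the p-values below measure the spread between cultures of 1 line and not between separately derived lines.

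In the ERK pathway, an activated growth factor receptor loads RAS with GTP, RAS activates RAF kinases, RAF phosphorylates MEK, and MEK phosphorylates ERK. ERK then induces the genes of its own inhibitors, so that their transcripts are often read as a record of ERK output. The DUSP enzymes remove phosphates from the threonine and tyrosine of the activation loop of MAP kinases. Sprouty and SPRED proteins act further upstream, between the receptor and RAF, and SPRED1 brings the RAS inhibitor neurofibromin to the membrane.

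Promoter sequences are shown for 3 members, chosen because their windows held at least 2 matches to short transcription factor motifs. RefSeq promoter windows on GRCh38.p14 were searched for 7 of the 10 members, and the 250 bases before each start site were read on the coding strand. DUSP4, DUSP5 and ETV5 were not searched. In DUSP6 and SPRY2, capitals mark the core CGGAA that ETS factors recognise, on either strand. In DUSP1, capitals mark the cyclic AMP response element TGACGTCA and the E-box CACGTG.
DUSP6 (chr12:89352502-89352751, minus strand): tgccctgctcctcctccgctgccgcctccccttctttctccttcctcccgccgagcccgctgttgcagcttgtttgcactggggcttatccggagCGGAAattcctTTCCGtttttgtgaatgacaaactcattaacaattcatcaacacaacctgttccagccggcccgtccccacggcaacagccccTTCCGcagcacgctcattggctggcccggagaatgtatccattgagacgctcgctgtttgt
SPRY2 (chr13:80341127-80341376, minus strand): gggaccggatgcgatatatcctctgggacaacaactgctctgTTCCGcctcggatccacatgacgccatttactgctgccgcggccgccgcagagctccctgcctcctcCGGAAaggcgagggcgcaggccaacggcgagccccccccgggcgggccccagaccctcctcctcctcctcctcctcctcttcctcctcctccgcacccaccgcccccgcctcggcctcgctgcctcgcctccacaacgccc
DUSP1 (chr5:172771196-172771445, minus strand): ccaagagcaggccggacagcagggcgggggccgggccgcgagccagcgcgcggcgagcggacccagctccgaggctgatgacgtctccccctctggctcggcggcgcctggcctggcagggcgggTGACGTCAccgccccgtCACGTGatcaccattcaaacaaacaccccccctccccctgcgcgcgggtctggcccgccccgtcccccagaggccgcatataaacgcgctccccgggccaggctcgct

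The DUSP6 window held 3 cores, beginning 155, 144 and 61 bases before the start site. The SPRY2 window printed held 2, beginning 208 and 141 bases before it. A SPRY1 window held 1, beginning 66 bases before the start site. No core was found in the other windows of SPRY1 and SPRY2 or in those of DUSP1, DUSP10, SPRY4 and SPRED1. One core or more was present in 30.3% of 35116 windows of this length, and 3 or more in 3.08%. The core was added to the search after the windows had been read. It is contained in the longer ETS motif CCGGAAGT, which was in none of the 11 windows searched for these 7 members and in 3.42% of all. The cyclic AMP response element of DUSP1 began 125 bases before the start site, and this motif was in 1.65% of windows. Its E-box began 108 bases before the start site, and 6.34% of windows held one. Neither the AP-1 motif TGANTCA (6.57% of windows) nor the STAT motif TTCCNGGAA (0.968%) was found in any of the 11 windows searched. A match describes these letters and is not evidence of binding.

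Total counts per library ran from 21425118 in CT replicate 2 to 80076597 in CT replicate 3, and values are given in the usual unit CPM, a gene's counts scaled to a common library size. Of 10637 well-expressed genes, 158 differed at least 2-fold between MC26 replicates 1 and 3, against 2 to 46 in other pairs of cultures of a line. All 9 epithelial markers were detected, with summed levels of 8828 to 11040 CPM in CT, 13398 to 16923 in MC26 and 9533 to 10052 in M1B26. One of them, EPCAM, was at 14.8 CPM in MC26 against 70.4 in CT and 72.1 in M1B26. The markers moved in both directions. KRT14 ran from 42.2 to 61.7 CPM in CT, 766 to 1521 in MC26 and 461 to 625 in M1B26. KRT6A ran from 1715 to 2099, 5047 to 7631 and 2756 to 3163 CPM, and KRT5 from 5774 to 7299, 5564 to 6694 and 4633 to 5220. Means in that order were 31.9, 78.1 and 79 CPM for TP63, 76.4, 40.7 and 44.1 for CDH1, and 372, 202 and 309 for KRT8. They were 534, 436 and 545 CPM for KRT18 and 378, 438 and 293 for KRT17. The 4 leukocyte markers summed to 14.8 to 19.9 CPM in CT, 34.4 to 36.8 in MC26 and 56.8 to 78.9 in M1B26, with PTPRC and CD3E at 3 counts or fewer in every library. CD14 had means of 9.08, 13.2 and 38.5 CPM in CT, MC26 and M1B26, and CD68 of 8.96, 22.5 and 26.7 CPM. The 3 endothelial markers summed to 4.85 to 5.32 CPM in CT, 0.0995 to 0.541 in MC26 and 0.497 to 1.74 in M1B26, with VWF and CDH5 at 3 counts or fewer. PECAM1 had means of 5.04, 0.268 and 0.898 CPM in CT, MC26 and M1B26. The 4 fibroblast markers summed to 37.3 to 37.6 CPM in CT, 17.1 to 56.5 in MC26 and 23.7 to 33.5 in M1B26, with COL1A2 at 3 counts or fewer. DCN ran from 28.6 to 29.9 CPM in CT, 5.45 to 47.3 in MC26 and 9.56 to 17.8 in M1B26. In the same order, COL1A1 had means of 7.73, 9.74 and 15.4 CPM, and PDGFRB of 0.738, 0.511 and 0.489 CPM. The part of these shifts in the results below was not tested.

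The feedback genes did not move as a block in either transformed line. A gene was called changed where its adjusted p by edgeR was under 0.05. In MC26 against CT, 7 of the 10 members were called, 2 higher and 5 lower, beside 38.7% of all tested genes (18.8% higher and 19.9% lower). This count fell to 3 without MC26 replicate 1 and to 4 without CT replicate 1 or MC26 replicate 2. In M1B26 against CT, 6 were called, 3 higher and 3 lower, beside 48.9% of all genes (25.2% higher and 23.7% lower), and 3 were called without M1B26 replicate 1. In M1B26 against MC26, 6 were called, 5 higher and 1 lower, beside 39.5% (21.2% higher and 18.4% lower), and 3 were called without MC26 replicate 2, M1B26 replicate 1 or M1B26 replicate 3. The libraries of the lines compared did not overlap for 7 members in MC26 against CT (50.3% of all tested genes), 7 in M1B26 against CT (59.0%) and 6 in M1B26 against MC26 (53.5%). The median log2 fold change of the members was -0.21, 0.10 and 0.17 in these comparisons, and that of all tested genes was 0.00 in MC26 against CT and in M1B26 against CT. A change of 2-fold or more was reached by SPRY4 alone in MC26 (10.8% of all genes), by DUSP5 alone in M1B26 against CT (11.7%) and by no member between the transformed lines (8.17%). RNA was taken from whole cultures, so fewer cells that express a gene and less RNA per cell cannot be told apart. MC26 and M1B26 were each compared with the same 3 CT libraries.

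**Figure D1:**
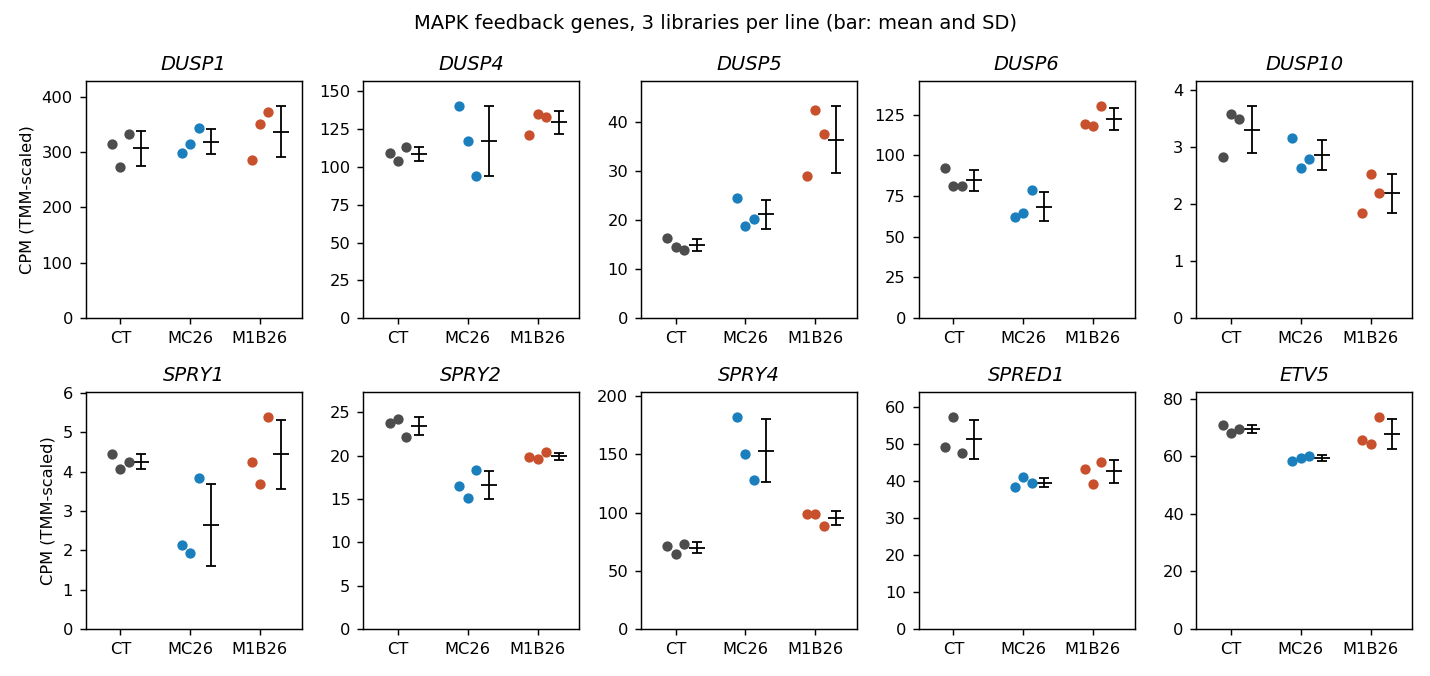
Level of each of the 10 feedback genes in each library, in CPM on an axis that starts at 0, with 3 cultures per line as points and the mean and SD of each line as bars. SPRY4 was highest in all 3 MC26 libraries (128 to 182 CPM), whereas DUSP5 (29.1 to 42.6 CPM) and DUSP6 (118 to 130 CPM) were highest in all 3 M1B26 libraries.

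DUSP6 is a cytoplasmic phosphatase selective for ERK. Its level was 92.2, 81.2 and 80.9 CPM in CT replicates 1 to 3. It was 62.2, 64.8 and 78.7 CPM in MC26 and 119, 118 and 130 CPM in M1B26. All M1B26 libraries thus lay above all others and all MC26 libraries below all CT libraries, although MC26 replicate 3 came close to the lowest CT library. In M1B26 the log2 fold change was 0.53 against CT (SE 0.09, edgeR adjusted p = 0.000954) and 0.83 against MC26 (SE 0.10, edgeR adjusted p = 9.17e-05), and both held when any 1 library was left out. In MC26 against CT it was -0.31 (SE 0.09, edgeR adjusted p = 0.0253). This decrease lost its call without CT replicate 1 (-0.24, edgeR adjusted p = 0.116), without MC26 replicate 1 (-0.24, edgeR adjusted p = 0.106) and without MC26 replicate 2 (-0.26, edgeR adjusted p = 0.0989). A long non-coding gene on the opposite strand, ENSG00000274021, overlaps 28.6% of the exonic length of DUSP6, and whether the counting used strand is not known. DUSP6 lies on chromosome 12 from 89347235 to 89352501 on the minus strand of GRCh38, just downstream of the window printed above.

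DUSP5 encodes the nuclear counterpart, which binds ERK in the nucleus. It was at 16.3, 14.5 and 13.9 CPM in CT, at 24.5, 18.8 and 20.3 CPM in MC26, and at 29.1, 42.6 and 37.6 CPM in M1B26. The lines did not overlap, and their order was CT, MC26, M1B26. DUSP5 rose 2.44-fold in M1B26 against CT (log2 fold change 1.29, SE 0.14, edgeR adjusted p = 3.7e-05) and 1.72-fold in M1B26 against MC26 (0.78, SE 0.14, edgeR adjusted p = 0.00149), with both calls kept in every alternative. The rise in MC26 against CT was 1.42-fold (0.51, SE 0.14, edgeR adjusted p = 0.0167). That call was lost without CT replicate 3 (0.46, edgeR adjusted p = 0.0545) and without MC26 replicate 1 (0.39, edgeR adjusted p = 0.0679). DUSP5 is on chromosome 10 from 110497907 to 110511533, plus strand of GRCh38.

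DUSP1 and DUSP4 are nuclear phosphatases with a broader range of MAP kinase substrates, and no comparison called either of them. DUSP1, an immediate early gene that also acts on p38 and JNK, was at 315, 272 and 332 CPM in CT, at 298, 314 and 343 CPM in MC26 and at 285, 351 and 373 CPM in M1B26. The 3 lines overlapped throughout. Its log2 fold change was 0.05 in MC26 against CT (95% interval -0.18 to 0.29), 0.13 in M1B26 against CT (-0.10 to 0.37) and 0.08 between the transformed lines (-0.16 to 0.32).

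DUSP4 was at 109, 104 and 113 CPM in CT, at 140, 117 and 93.9 CPM in MC26, and at 121, 135 and 133 CPM in M1B26. MC26 spanned more than the range of both other lines, whereas every M1B26 library was above every CT library. The log2 fold change was 0.10 in MC26 against CT (95% interval -0.16 to 0.36), 0.25 in M1B26 against CT (-0.01 to 0.51, edgeR adjusted p = 0.0995) and 0.15 in M1B26 against MC26 (-0.11 to 0.41). M1B26 against CT passed the threshold without MC26 replicate 1 (0.26, edgeR adjusted p = 0.033) and without MC26 replicate 3 (0.25, edgeR adjusted p = 0.0241). It also passed with only the 6 libraries compared (edgeR adjusted p = 0.0173) and with no filter on low counts (edgeR adjusted p = 0.0217). M1B26 against MC26 passed without MC26 replicate 1 (0.30, edgeR adjusted p = 0.0416).

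DUSP10, whose protein prefers p38 and JNK to ERK, was low in every library and lowest in M1B26. It was at 2.83, 3.58 and 3.5 CPM in CT, at 3.16, 2.64 and 2.8 CPM in MC26 and at 1.85, 2.53 and 2.2 CPM in M1B26. It fell in M1B26 against CT (log2 fold change -0.58, SE 0.16, edgeR adjusted p = 0.0124), a call lost without M1B26 replicate 1 (-0.47, edgeR adjusted p = 0.0521). MC26 overlapped CT, at -0.20 (95% interval -0.55 to 0.16). M1B26 against MC26 gave -0.39 (edgeR adjusted p = 0.0851), with no overlap of the libraries.

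SPRY4 showed the largest change of any member in MC26. Its protein acts between the receptor and RAF. SPRY4 was at 71.6, 64.3 and 73.2 CPM in CT, at 182, 150 and 128 CPM in MC26, and at 98.9, 98.7 and 88.6 CPM in M1B26. The lines did not overlap, and M1B26 lay between the other two. SPRY4 rose 2.2-fold in MC26 (log2 fold change 1.13, SE 0.12, edgeR adjusted p = 3.07e-05) and 1.37-fold in M1B26 (0.45, SE 0.11, edgeR adjusted p = 0.00746) against CT. It was lower in M1B26 than in MC26 (-0.68, SE 0.11, edgeR adjusted p = 0.000945). All 3 calls were kept in every alternative and with any 1 library left out. SPRY4 lies on chromosome 5 from 142310427 to 142326455, minus strand of GRCh38.

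SPRY2, the Sprouty that also binds GRB2 and the ubiquitin ligase CBL, moved the other way in MC26. It was at 23.8, 24.2 and 22.2 CPM in CT, at 16.5, 15.1 and 18.3 CPM in MC26, and at 19.9, 19.6 and 20.4 CPM in M1B26. Again no lines overlapped, here with MC26 lowest and M1B26 in between. The decrease in MC26 against CT (-0.49, SE 0.08, edgeR adjusted p = 0.00109) held in every alternative. The smaller decrease in M1B26 against CT (-0.23, SE 0.08, edgeR adjusted p = 0.0425) and the difference of M1B26 from MC26 (0.26, SE 0.08, edgeR adjusted p = 0.0296) did not. The former lost its call without CT replicates 1 or 2, MC26 replicate 1 or any M1B26 replicate, with edgeR adjusted p of 0.0532 to 0.12. The latter lost it without CT replicate 1, MC26 replicates 1 or 2 or any M1B26 replicate, with edgeR adjusted p of 0.0536 to 0.125. SPRY2 lies on chromosome 13 from 80335976 to 80341126, minus strand of GRCh38.

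SPRY1 had the lowest level per kb of the 3 Sprouty members in every line. It was at 4.46, 4.06 and 4.26 CPM in CT, at 2.14, 1.94 and 3.84 CPM in MC26, and at 4.24, 3.69 and 5.39 CPM in M1B26. MC26 replicates 1 and 2 were well below the other libraries, and MC26 replicate 3 lay just below CT and within M1B26. SPRY1 was lower in MC26 than in CT (log2 fold change -0.69, SE 0.24, edgeR adjusted p = 0.0395), and in M1B26 it exceeded MC26 (0.75, SE 0.24, edgeR adjusted p = 0.0275). M1B26 against CT gave 0.06 (95% interval -0.44 to 0.56). Without MC26 replicate 3 the first value was -1.07 (edgeR adjusted p = 0.00109) and the second 1.13 (edgeR adjusted p = 0.000865). The first lost its call without any 1 of the CT replicates, MC26 replicates 1 or 2, or M1B26 replicate 1, with values of -0.51 to -0.72 and edgeR adjusted p of 0.0564 to 0.144. The second lost it without MC26 replicates 1 or 2 or M1B26 replicates 1 or 3, with values of 0.57 to 0.79 and edgeR adjusted p of 0.0524 to 0.106.

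SPRED1 was lower in both transformed lines. It was at 49.1, 57.2 and 47.4 CPM in CT, at 38.3, 40.9 and 39.4 CPM in MC26, and at 43.3, 39.1 and 45.2 CPM in M1B26. Every transformed library lay below every CT library, and the transformed lines overlapped. SPRED1 fell in MC26 (-0.37, SE 0.08, edgeR adjusted p = 0.0058), a call kept in every alternative, and in M1B26 (-0.26, SE 0.08, edgeR adjusted p = 0.0239). The M1B26 call was lost without CT replicate 2 (-0.19, edgeR adjusted p = 0.0547), without M1B26 replicate 1 (-0.27, edgeR adjusted p = 0.0542) and without M1B26 replicate 2 (-0.20, edgeR adjusted p = 0.103). Between the transformed lines the log2 fold change was 0.11 (95% interval -0.08 to 0.29).

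ETV5 had the smallest called change. Its level was 70.9, 68.2 and 69.5 CPM in CT, 58.3, 59.5 and 60.2 CPM in MC26, and 65.5, 64.1 and 73.6 CPM in M1B26. MC26 was below all other libraries, whereas M1B26 spanned CT. ETV5 was lower in MC26 than in CT (-0.23, SE 0.07, edgeR adjusted p = 0.0184) and in M1B26 it exceeded MC26 (0.19, SE 0.07, edgeR adjusted p = 0.0403). M1B26 against CT gave -0.04 (95% interval -0.18 to 0.11). The first call was lost without CT replicate 1 (edgeR adjusted p = 0.0756), MC26 replicate 1 (edgeR adjusted p = 0.0681) or MC26 replicate 2 (edgeR adjusted p = 0.0606). The second was lost without any of 7 libraries, all but CT replicate 2 and M1B26 replicate 2, with edgeR adjusted p of 0.0571 to 0.158. ETV5 shares 2.84% of its exonic length with DGKG on the same strand.

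**Figure D2:**
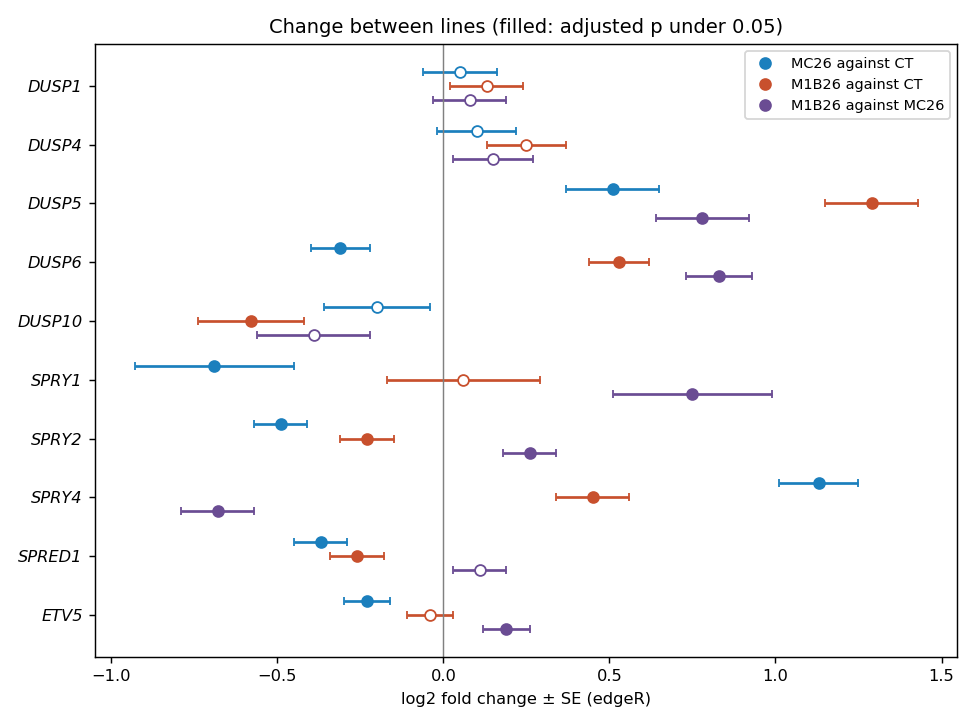
Log2 fold change of each of the 10 members in the 3 comparisons, with bars for the SE and filled points where the adjusted p by edgeR was under 0.05. SPRY4 stood at 1.13 in MC26 and 0.45 in M1B26 against CT, DUSP6 at -0.31 and 0.53, and DUSP1 near 0 in all 3 comparisons.

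Set side by side, the members showed 8 different patterns of called and uncalled values over the 3 comparisons. Differences between members were not tested. DUSP5 and SPRY4 were called higher in both transformed lines, and SPRY2 and SPRED1 lower in both. SPRY1 and ETV5 were called lower in MC26 against CT and higher in M1B26 than in MC26, and DUSP10 was called only in M1B26 against CT. DUSP6 was the 1 member called in opposite directions against CT. Of the 19 calls, 9 were kept in every alternative and with each library left out. These were the 3 of SPRY4, those of SPRY2 and SPRED1 in MC26 against CT, and those of DUSP5 and DUSP6 in M1B26 against CT and against MC26.

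**Figure D3:**
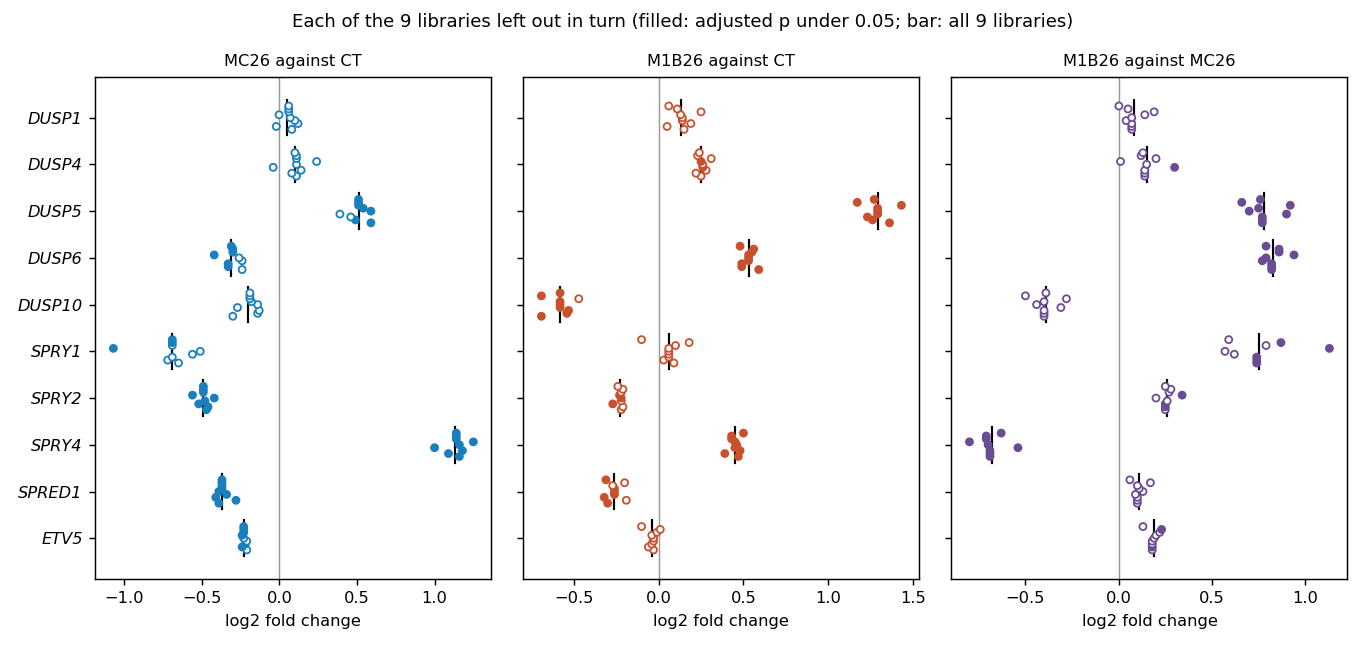
Log2 fold change of each member refitted without each of the 9 libraries in turn, with filled points where the adjusted p by edgeR was under 0.05 and a bar at the value from all 9 libraries. SPRY4 stayed filled throughout, whereas SPRY1 in MC26 against CT moved between -0.51 and -1.07 and was filled in 3 of 9 refits.

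The balance of SPRY4 to DUSP6 separated MC26 from both other lines. This pair was chosen after its values were seen, so the ratio is given as a description. SPRY4 counts per DUSP6 count were 0.776, 0.792 and 0.905 in CT and 0.834, 0.835 and 0.683 in M1B26, which overlapped. They were 2.93, 2.32 and 1.62 in MC26, above every other library. Both genes are read in the same library, so the ratio does not depend on how libraries were scaled. MC26 replicate 3 was nearest to CT in the ratio, as it was in the level of each gene.

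**Figure D4:**
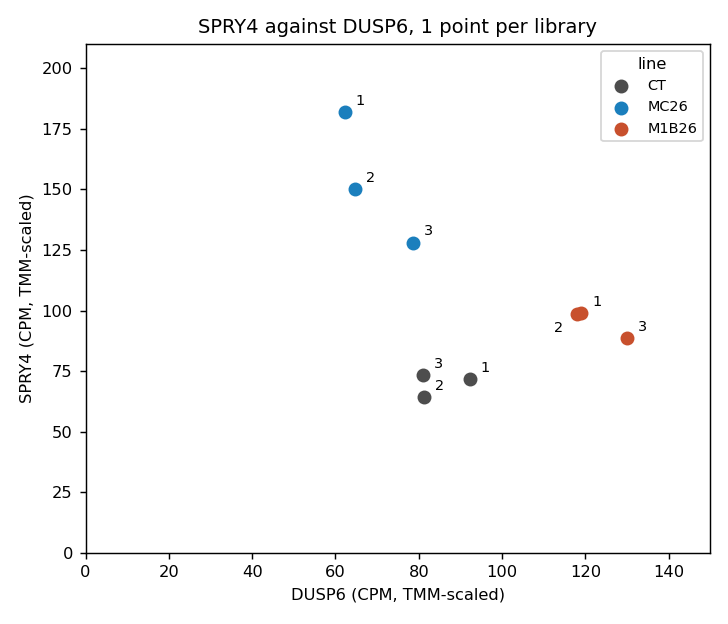
SPRY4 against DUSP6 in CPM, 1 point per library with its replicate number, both axes from 0. The MC26 libraries sit at 62.2 to 78.7 CPM of DUSP6 and 128 to 182 of SPRY4, the M1B26 libraries at 118 to 130 and 88.6 to 98.9, and the CT libraries at 80.9 to 92.2 and 64.3 to 73.2.

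Levels of different genes were compared as CPM per kb of exonic length. On this scale DUSP1 was the most abundant member in each line, at 152 in CT, 158 in MC26 and 167 in M1B26. In CT it was followed by DUSP6 (22), DUSP4 (15), ETV5 (12), SPRY4 (10.6) and SPRY2 (7.27), which did not overlap. SPRY2, SPRED1 (6.61) and DUSP5 (5.88) overlapped each with the next, as did DUSP10 (1.17) and SPRY1 (1.07), the least abundant. In MC26, SPRY4 stood second at 23.4 CPM per kb, although its libraries overlapped those of DUSP6 (17.8), and those of DUSP6 overlapped DUSP4 (16.1). In M1B26, DUSP6 was second at 31.7 CPM per kb without overlap, and DUSP5 (14.4) reached the level of SPRY4 (14.6) and ETV5 (11.7), with overlap between neighbours.

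Members whose line means spanned at least 1 on the log2 scale were matched with the tested gene of at least 5 CPM whose centred log2 CPM over the 9 libraries differed least. DUSP5 was nearest to BTG3, an antiproliferative gene, with a root mean square difference of 0.144. BTG3 was at 24.2, 25.5 and 24 CPM in CT, at 39.2, 33.1 and 33.1 CPM in MC26 and at 58.9, 60.4 and 59.8 CPM in M1B26. SPRY4 was nearest to MMP14, a membrane-bound matrix metalloproteinase, with a difference of 0.098. MMP14 was at 114, 100 and 115 CPM in CT, at 322, 273 and 243 CPM in MC26 and at 160, 165 and 156 CPM in M1B26. As for SPRY4, all MC26 libraries were highest and replicate 3 was the lowest of them. BTG3 and MMP14 were picked for likeness over these same libraries, so a shared order is what the choice selects for.

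Relatives of the members in the same families were counted next. Of 10 relatives (DUSP2, DUSP7, DUSP8, DUSP9, DUSP16, SPRY3, SPRED2, SPRED3, ETV1 and ETV4), 7 were called in MC26 against CT, 3 higher and 4 lower, with a median log2 fold change of -0.11. In M1B26 against CT 6 were higher and 1 lower (median 0.40), and in M1B26 against MC26 4 were higher and 1 lower (median 0.15). The shares called were 70%, 70% and 50% in these comparisons, beside 38.7%, 48.9% and 39.5% of all tested genes. Of all genes, 18.8%, 25.2% and 21.2% were called higher, and 19.9%, 23.7% and 18.4% lower. SPRED3, a paralog of SPRED1, had the directions of SPRY4. Its level was 1.67 ± 0.282 CPM in CT, 8.35 ± 1.41 CPM in MC26 and 5.16 ± 0.61 CPM in M1B26 (mean ± SD, n = 3). On the log2 scale it changed by 2.28 in MC26 and 1.59 in M1B26 against CT and -0.70 in M1B26 against MC26, all called by edgeR. DUSP9, an ERK phosphatase close to DUSP6, had the directions of DUSP6, at 0.719 ± 0.17, 0.319 ± 0.139 and 2.05 ± 0.39 CPM in CT, MC26 and M1B26 (mean ± SD, n = 3). It was higher in M1B26 against CT (1.46) and against MC26 (2.66). Its decrease in MC26 (-1.21, edgeR adjusted p = 0.0134) lost its call without CT replicate 3 (-0.99, edgeR adjusted p = 0.0594) or MC26 replicate 1 (-0.96, edgeR adjusted p = 0.0548).

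DUSP8, a phosphatase of JNK and p38, was the relative called lower in M1B26 against CT (-1.97). Its level was under 1.3 CPM in every library. It was also lower in MC26 against CT (-1.39, edgeR adjusted p = 0.0166), a call lost without CT replicate 1 (edgeR adjusted p = 0.0802), CT replicate 3 (edgeR adjusted p = 0.0583) or MC26 replicate 3 (edgeR adjusted p = 0.0511). SPRY3 was higher in M1B26 against CT (0.71) and against MC26 (1.09), at 3.71 ± 0.697 CPM in M1B26, 2.27 ± 0.0373 in CT and 1.75 ± 0.436 in MC26 (mean ± SD, n = 3). Named after their values were seen, the remaining calls were DUSP2 and DUSP7, higher in both transformed lines against CT, and ETV1 and ETV4, both lower in MC26 against CT and higher in M1B26 against MC26, as ETV5 was. ETV4 was also higher in M1B26 against CT (0.31, edgeR adjusted p = 0.00997). Its decrease in MC26 (-0.23, edgeR adjusted p = 0.0476) was lost without any library but CT replicate 2 and MC26 replicate 3 (edgeR adjusted p of 0.0562 to 0.19), with no filter (edgeR adjusted p = 0.0656) and with only the 6 libraries compared (edgeR adjusted p = 0.0678). The M1B26 call of DUSP2 (0.50, edgeR adjusted p = 0.0254) was lost without CT replicates 1 or 2 or M1B26 replicate 1 (edgeR adjusted p of 0.0593 to 0.0952).

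Of 13 other genes that ERK induces, 7 were higher and 1 lower in MC26 against CT (median 0.35), and 8 were higher and 1 lower in M1B26 against CT (median 0.55). Between the transformed lines 4 were higher and 3 lower in M1B26 (median 0.25). The shares called were 61.5%, 69.2% and 53.8% in these comparisons, beside 38.7%, 48.9% and 39.5% of all tested genes. Of all genes, 18.8%, 25.2% and 21.2% were called higher, and 19.9%, 23.7% and 18.4% lower. The gene that was lower in both lines was EGR1, an immediate early transcription factor (-0.65 in MC26 and -0.42 in M1B26), named after its value was seen. Its M1B26 call was lost without CT replicates 1 or 3 or any M1B26 replicate (edgeR adjusted p of 0.0898 to 0.151). EGR1 in MC26 replicate 3 (65.7 CPM) lay above CT replicate 2 (64.7 CPM). In MC26 against CT, FOS (-0.45, edgeR adjusted p = 0.076) was called lower with DESeq2, total counts, no filter, the replicate block or without MC26 replicate 3. CCND1 (0.31, edgeR adjusted p = 0.0614) was called higher there with DESeq2, no filter or without MC26 replicate 3. EREG, which encodes the EGF receptor ligand epiregulin, was in the order of DUSP5, at 23.2 ± 3.63 CPM in CT, 47.9 ± 3.73 CPM in MC26 and 99.9 ± 7.61 CPM in M1B26 (mean ± SD, n = 3). FOSL1, an AP-1 subunit, was in the order of SPRY4, at 45.2 ± 9.05, 136 ± 43.3 and 90.9 ± 5.32 CPM (mean ± SD, n = 3), and so was PLAUR, the urokinase receptor, at 10.8 ± 1.82, 33.3 ± 7.81 and 20.1 ± 1.58 CPM (mean ± SD, n = 3). Against CT, the log2 fold change of FOSL1 was 1.58 in MC26, that of PLAUR was 1.61 in MC26 and 0.88 in M1B26, and FOSL1 was also called higher in M1B26 (edgeR adjusted p = 0.0019). Both were lower in M1B26 than in MC26. For PLAUR this difference (-0.73) was kept in every alternative. For FOSL1 (-0.58, edgeR adjusted p = 0.0365) it lost its call without MC26 replicate 1 (-0.31, edgeR adjusted p = 0.158), and without MC26 replicate 2 or any M1B26 replicate (edgeR adjusted p of 0.0679 to 0.105).

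HBEGF, another EGF receptor ligand, and IER2, an immediate early gene, were higher in both lines. HBEGF was 0.81 in MC26 and 1.38 in M1B26 against CT on the log2 scale, and IER2 0.82 and 1.07. The MC26 call of HBEGF was lost without CT replicate 3 (0.77, edgeR adjusted p = 0.0526) or MC26 replicate 2 (0.65, edgeR adjusted p = 0.0725). Among the genes higher in M1B26 than in MC26, EREG had the largest difference (1.06), and the remaining 3, FOS, IER3 and PHLDA1, were named after their values were seen. IER3 lost this call without M1B26 replicate 1 (edgeR adjusted p = 0.0502), and PHLDA1 without CT replicate 1, MC26 replicates 2 or 3 or M1B26 replicates 2 or 3 (edgeR adjusted p of 0.0535 to 0.0992). CCND1 (cyclin D1) was the remaining gene that was lower (-0.55, edgeR adjusted p = 0.00443).

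In the core of the ERK cascade, the shares called lay near those of all genes. Of 20 adaptors, RAS proteins and kinases, 9 were called in MC26 against CT (5 higher, 4 lower, median 0.02), or 45% beside 38.7% of all genes. In M1B26 against CT 8 were called (3 higher, 5 lower, median 0.04), or 40% beside 48.9%, and between the transformed lines 6 (3 in each direction, median -0.02), or 30% beside 39.5%. The 1 gene past 2-fold was KSR1, a scaffold that holds RAF, MEK and ERK together. KSR1 was at 6.5, 5.33 and 5.25 CPM in CT, at 1.09, 1.54 and 2.54 CPM in MC26 and at 5.5, 4.69 and 8.86 CPM in M1B26. MC26 was below all other libraries, with a log2 fold change of -1.72 against CT (edgeR adjusted p = 0.00119), and M1B26 was 1.88 above MC26 (edgeR adjusted p = 0.000748). HRAS and MAP2K1, which encodes MEK1, were higher in both lines against CT in every alternative. Both were named after their values were seen, and neither changed by 2-fold.

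**Figure D5:**
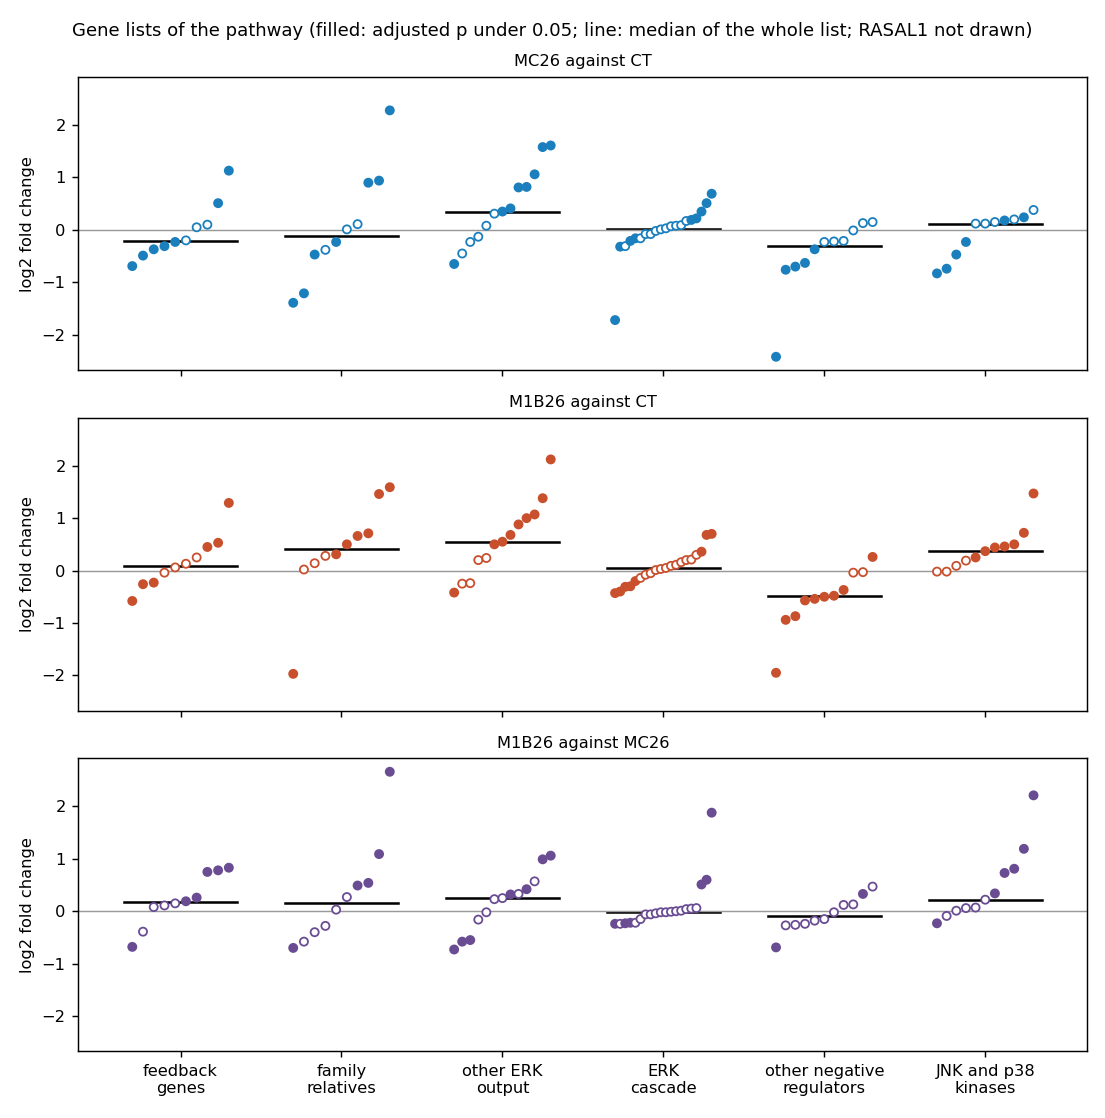
Log2 fold change of each gene of the 10 feedback genes and 5 other lists in the 3 comparisons, filled where the adjusted p by edgeR was under 0.05, with a line at the median of each list. RASAL1, with 0 counts in 2 MC26 libraries, is not drawn but counts in the median; medians against CT ran from -0.30 to 0.35 in MC26 and from -0.49 to 0.55 in M1B26.

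A further list held negative regulators of receptors and RAS outside the DUSP, Sprouty and SPRED families. Of 12, none was called higher, 6 were called lower and 6 did not pass the test by edgeR in MC26 against CT (median -0.30), where 19.9% of all genes were called lower. In M1B26 against CT 8 were lower, 3 did not pass and 1, DAB2IP, was higher (median -0.49), and 23.7% of all genes were called lower. Between the transformed lines 2 were higher and 1, RASAL2, was lower (median -0.09), or 25% called beside 39.5% of all genes. LRIG1, a membrane protein that lowers EGF receptor levels, was at 23.6 ± 0.912 CPM in CT, 4.4 ± 1.37 CPM in MC26 and 6.08 ± 2.06 CPM in M1B26 (mean ± SD, n = 3). The change was -2.42 on the log2 scale in MC26 and -1.95 in M1B26 against CT, both called by edgeR. RASAL1, a RAS GTPase-activating protein, was at 1.25 ± 0.129 CPM in CT and 0.941 ± 0.381 in M1B26 (mean ± SD, n = 3), and in MC26 it had 0, 0 and 4 counts. NF1, which encodes the neurofibromin that SPRED1 recruits, was lower in MC26 (-0.37, edgeR adjusted p = 0.0165) and not called in M1B26 against CT (-0.04, edgeR adjusted p = 0.776). The MC26 call of NF1 was lost without CT replicate 2 (edgeR adjusted p = 0.0525) or MC26 replicate 1 (edgeR adjusted p = 0.0631). That of DAB2IP in M1B26 (0.26, edgeR adjusted p = 0.0411) was lost with total counts (0.16, edgeR adjusted p = 0.138) and without CT replicate 2, MC26 replicate 2 or M1B26 replicates 1 or 3 (edgeR adjusted p of 0.0582 to 0.137). NF1 was named after its values were seen, as were DAB2IP and RASAL2.

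The JNK and p38 kinases, on which DUSP10, DUSP8 and DUSP1 also act, were counted together with the kinases that activate them. Of 11 genes of these branches, 2 were higher and 4 lower in MC26 against CT (median 0.12). In M1B26 against CT 7 were higher and none was lower (median 0.37). In M1B26 against MC26 5 were higher and 1, MAP2K7, was lower (median 0.22). The shares called were 54.5%, 63.6% and 54.5% in these comparisons, beside 38.7%, 48.9% and 39.5% of all tested genes. Of all genes, 18.8%, 25.2% and 21.2% were called higher, and 19.9%, 23.7% and 18.4% lower. MAP2K7 (-0.23, edgeR adjusted p = 0.0414), named after its values were seen, lost its call without any library but CT replicates 2 and 3 (edgeR adjusted p of 0.0507 to 0.158). MAP2K6, which activates p38, was at 3.4 ± 0.116 CPM in CT, 2.03 ± 0.568 CPM in MC26 and 9.4 ± 0.398 CPM in M1B26 (mean ± SD, n = 3). It fell in MC26 (-0.74) and rose in M1B26 (1.47) against CT. MAPK13, a p38 kinase, was at 22.7 ± 2.14, 16.4 ± 2.69 and 37.5 ± 8.69 CPM (mean ± SD, n = 3), with log2 fold changes of -0.47 in MC26 and 0.72 in M1B26 against CT. The MC26 call of MAPK13 was lost without CT replicates 1 or 3, MC26 replicates 2 or 3, or M1B26 replicate 1, with edgeR adjusted p of 0.0539 to 0.137. Of the 11 genes, MAP2K3, MAP2K4 and MAP2K6 lie on chromosome 17, as do KSR1, GRB2, NF1 and ETV4. The median log2 fold change of 849 tested genes of that chromosome was 0.47 in M1B26 against CT, 0.48 in M1B26 against MC26 and 0.00 in MC26 against CT, and its part in the values of these 7 genes was not tested. None of the 10 feedback genes lies on chromosome 17.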

How the data were processed

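The authors aligned reads from poly-A libraries, sequenced in paired-end mode, to GRCh38 with STAR 2.7.3a and GENCODE annotation, and deposited raw counts per gene symbol. Their notes also name Salmon 1.1.0 on protein-coding genes, but the table holds whole numbers and non-coding symbols, so the counting program and its use of strand are not known. Groups and replicate numbers came from the sample titles.

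Genes were kept by filterByExpr (minimum count 10) in edgeR 4.0.16 under R 4.3.3, and libraries were scaled by TMM (0.968 to 1.07). One quasi-likelihood model of line covered the 9 libraries, and the 3 pairs of lines were tested over all 15717 kept genes with 2-sided p-values and Benjamini-Hochberg adjustment. The biological coefficient of variation was 10.4%. The fitting was tested on simulated data. CPM used TMM-scaled library sizes. Positions and exonic lengths came from GENCODE on GRCh38.

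Alternatives were RLE factors, total counts, DESeq2 1.42.0, no filter on low counts, a minimum mean of 50 counts, the replicate number as a block, only the 6 libraries compared, and each library left out. The 10 members and the gene lists were chosen with earlier results of these data known. All members were named, and of each other list the up to 6 genes with the largest changes among those called at 2-fold or more (log2 of 1) in any comparison. Any other gene named was chosen after its values were seen.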

Additional observations from a re-analysis of the deposited data

Results flagged for a closer look

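The 2 transformed lines differed from each other in these genes by the direct edgeR test of M1B26 against MC26. Among the feedback genes, the log2 fold change was 0.78 for DUSP5, 0.83 for DUSP6, 0.75 for SPRY1, 0.26 for SPRY2, -0.68 for SPRY4 and 0.19 for ETV5. Among their relatives it was 2.66 for DUSP9, 1.09 for SPRY3 and -0.70 for SPRED3. In the other lists it was 1.06 for EREG, -0.58 for FOSL1, -0.73 for PLAUR, 1.88 for KSR1, 2.21 for MAP2K6 and 1.19 for MAPK13. The value of 4.75 for RASAL1 depends on the prior count of the fit, since MC26 held 4 counts in all. Groups of 3 libraries were too small for a test of single libraries.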

How the results depend on the processing

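The number of feedback genes called changed stayed within 1.5 times of the reported one under RLE factors, total counts, DESeq2, both filters, the block and the 6-library fits. With a library left out it was 3 to 7 of 10 in MC26 against CT (3 without MC26 replicate 1, 4 without CT replicate 1 or MC26 replicate 2), 3 to 7 in M1B26 against CT (3 without M1B26 replicate 1) and 3 to 6 in M1B26 against MC26 (3 without MC26 replicate 2, M1B26 replicate 1 or M1B26 replicate 3). The count of family relatives in MC26 against CT was 4 to 7 (4 without CT replicate 3). Signs turned only in values that had not been called. With total counts in place of TMM these were DUSP1 in MC26 against CT (-0.02) and SPRY1 in M1B26 against CT (-0.03). With a library left out, DUSP1 in MC26 against CT ran from -0.02 to 0.12, DUSP4 in MC26 against CT from -0.04 to 0.24, SPRY1 in M1B26 against CT from -0.10 to 0.18, ETV5 in M1B26 against CT from -0.10 to 0.01 and KSR1 in M1B26 against CT from -0.16 to 0.34. The cause was not tested. Over all genes, the share of calls that were higher was 35.8% with total counts against 48.5% in MC26 against CT, and 39.6% against 51.5% in M1B26 against CT. Other calls lost with all libraries kept were SPRY2 in M1B26 against CT (edgeR adjusted p = 0.126) and in M1B26 against MC26 (0.0524) and ETV5 in MC26 against CT (0.0506) with no filter, SPRY1 with only 6 libraries (0.0554 in MC26 against CT, 0.0539 in M1B26 against MC26), and FOSL1 in M1B26 against MC26 with DESeq2 (0.055). ETV5 in M1B26 against MC26 was lost with total counts (edgeR adjusted p = 0.0715), no filter (0.096) and only 6 libraries (0.0503). Among genes named after their values were seen, ETV4 in MC26 against CT was lost with no filter (0.0656) and only 6 libraries (0.0678), MAP2K7 in M1B26 against MC26 with no filter (0.0702), DAB2IP in M1B26 against CT with total counts (0.138) and only 6 libraries (0.055), and PHLDA1 in M1B26 against MC26 with only 6 libraries (0.0556).

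The sample titles do not say whether libraries with the same replicate number were grown or handled together. Their deviations from the line means correlated at -0.159 to 0.285 over genes. For libraries of different lines with different numbers the range was -0.263 to 0.258. These correlations cannot tell whether a shared number stands for a shared culture round. With the replicate number as a block, 7, 5 and 5 feedback genes were called, and 5879, 7513 and 6009 of all genes. Among named values, the block ended the calls of SPRY2 in M1B26 against CT (edgeR adjusted p = 0.0611) and ETV5 in M1B26 against MC26 (edgeR adjusted p = 0.052), and of ETV4 in MC26 against CT (edgeR adjusted p = 0.0602).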
